A study of Mus musculus with 13 samples.

Results

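Wdr76, Iws1 and Gnl3l are protein-coding mouse genes that the study showed as hosts of densely edited double-stranded RNA. All were taken from the count table by their Ensembl identifiers, each of which carried the symbol in the GENCODE annotation of GRCm38, and they make up 3 of 54532 genes. The cells were Yumm1.7, a mouse cutaneous melanoma line that the labels give as wild type and that all libraries share. They received DMSO, the solvent control, ADAR1i-124 at 10 μM for 12 h, 5-Aza-CdR at 1 μM for 72 h, or the combination. RNA was sequenced as total RNA, or after precipitation with the antibody J2, with the antibody Z22, or with IgG as the control for unspecific binding. Each condition had 1 library, so no difference between treatments below has a replicate check and none was tested. The labels give no dose or time for the combination. The study's text has 5-Aza-CdR first and then ADAR1i-124, at the doses and times of the single drugs in one legend, but it also combined a lower dose of ADAR1i-124 in total RNA, so an equal dose in the precipitated libraries is not certain. How the cells for IgG were treated is not given in the sources used here. The total RNA library of the combination was left out because its counts followed the other strand: genes annotated as antisense took 22.6% of them, against 0.106% to 0.176% in the other libraries. Of its 1245894 counts, Wdr76 had 5, Iws1 3 and Gnl3l 1. This leaves 12 of 13 libraries, with 3 of total RNA, 4 with J2, 4 with Z22 and 1 with IgG. A single cell line limits the model, and the table holds counts per gene, not editing levels, so the label of a densely edited host could not be checked with it.

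ADAR1 converts adenosine to inosine in double-stranded RNA. In messenger RNAs such RNA often forms where copies of a repeat lie in opposite directions in the 3′ untranslated region (UTR) and fold back on each other. Inosine does not pair with uridine as adenosine does, so editing loosens the duplex and keeps cytoplasmic sensors of double-stranded RNA from binding it. J2 recognises double-stranded RNA of sufficient length whatever its sequence, and Z22 recognises the left-handed Z form. ADAR1i-124 is the study's inhibitor of editing by ADAR1, and 5-Aza-CdR blocks DNA methylation and so lets silenced retroelements be transcribed. Wdr76 encodes a WD40-repeat protein that works with the CUL4–DDB1 ubiquitin ligase. Iws1 encodes a partner of the elongation factor Spt6 at RNA polymerase II. Gnl3l encodes a nucleolar GTP-binding protein of the nucleostemin family.

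The last exon of each gene holds a pair of stretches that can fold on each other, and the longest unbroken pairing of 2 of the genes is shown so that the double strand can be read directly. Sequences are from the RefSeq GRCm38 genome, read 5′ to 3′ on the gene's own strand, and capitals mark the bases that pair without a gap or mismatch. Wdr76 has these stretches of its 3′ UTR at chr2:121543771-121543800 and chr2:121544256-121544285, both on the + strand:
Wdr76 stretch 1: ggaatTCTGGGAACTTTTCAGAGGttatat
Wdr76 stretch 2: catacCCTCTGAAAAGTTCCCAGAgttcca
Gnl3l has them at chrX:150985454-150985483 and chrX:150984553-150984582, both on the - strand:
Gnl3l stretch 1: agtttcAGGCCAGCCTGGTCTACcgagcaa
Gnl3l stretch 2: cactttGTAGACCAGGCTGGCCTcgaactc
Read backwards and complemented, the capitals of stretch 2 give those of stretch 1, over 19 bases in Wdr76 and 17 in Gnl3l. They are the unbroken core of longer imperfect pairings. In Wdr76 a stretch of 293 bases faced one of 291 bases with 219 bases between them, and 218 bases were paired. In Gnl3l a stretch of 198 bases faced one of 205 bases with 725 bases between them, and 148 bases were paired. The 3′ UTR part in the last exon spans 2298 bases in Wdr76 and 2963 bases in Gnl3l.

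Such pairings were scored for every gene by giving each paired base 1, each mismatch -1 and each gap -2, and keeping the best pair of stretches that do not overlap. The ends of a stretch found in this way are approximate. The score was 114 for Wdr76 and 81 for Gnl3l, against a median of 15 over 11401 expressed genes with a 3′ UTR in the last exon. As high a score occurred in 0.254% of these genes for Wdr76 and in 0.614% for Gnl3l. Long UTRs hold high scores more often, and among UTRs at least as long as the gene's own the shares were 0.922% for Wdr76 and 2.71% for Gnl3l. The longest unbroken pairing was matched more often, in 6.66% of UTRs at least as long for Wdr76 and in 13.6% for Gnl3l.

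In Iws1 the last-exon 3′ UTR is 7047 bases long, from 32097282 to 32104328 on chromosome 18 (GRCm38, + strand). Its best pairing, with a score of 93, joined 160 bases and 159 bases at 127 paired bases, and the longest unbroken pairing was 26 bases. The 2 stretches of Iws1 were 3855 bases apart. The first of them lies outside the Iws1 region that the study presents as edited, so this pairing is not that duplex, while both stretches of Wdr76 and of Gnl3l lie inside the regions presented for them. As high a score was found in 0.474% of expressed genes, but in 10.7% of the 149 genes whose UTR is at least as long, and as long an unbroken pairing in 14.1% of them. The whole gene ENSMUSG00000024384 runs from 32067741 to 32104328. Wdr76 (ENSMUSG00000027242) lies on chromosome 2 from 121506723 to 121544860, and Gnl3l (ENSMUSG00000025266) on the reverse strand of chromosome X from 150983141 to 151017322.

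**Figure D1:**
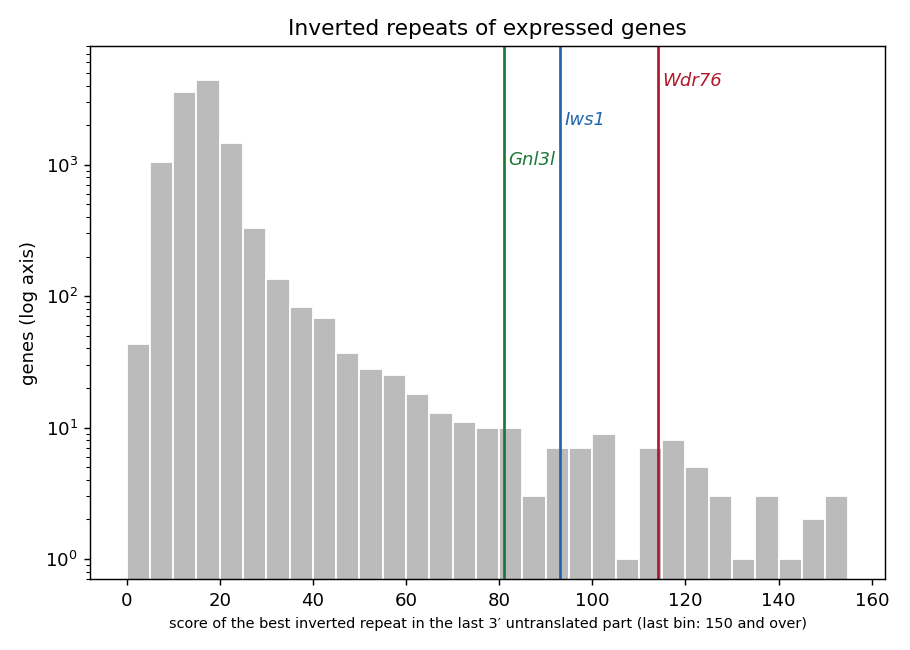
Number of expressed genes (log axis) by the score of the best inverted repeat in the last-exon 3′ UTR, in bins of equal width with the last one open. Coloured lines mark Gnl3l at 81, Iws1 at 93 and Wdr76 at 114, all far to the right of the median gene at 15.

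Library totals ran from 8167960 to 34571822 counts over the 12 libraries, and 3 counts, taken as the floor of detection, were worth 0.0868 to 0.367 CPM (counts scaled to a common library total of 1000000). The precipitation with Z22 from DMSO-treated cells stood apart. The gene Gm42418, which overlaps ribosomal RNA, took 34.9% of its counts and 10.6% to 18.9% of those of the other precipitated libraries, against 0.0299% to 0.334% in total RNA. Its share lowers the CPM of every other gene there. Differences are therefore also given relative to the median of all genes, taken over genes that average 1 CPM or more in the compared pair. Of 7 markers of the melanocyte lineage, only Mitf reached 1 CPM in every total RNA library, and Mlana, Tyr and Tyrp1 were at 0 in all of them. The summed level of 3 leukocyte markers ranged from 8.29 to 79.1 CPM and that of 2 endothelial markers from 4.06 to 82.7 CPM, both highest with 5-Aza-CdR. Nearly all of this was Cd68, at up to 75.4 CPM, and Cdh5, at up to 81.1 CPM, while Ptprc, Lyz2 and Pecam1 reached at most 1.21, 2.43 and 1.59 CPM. The 2 keratinocyte markers summed to at most 0.0588 CPM. The part of these shifts in the results was not tested.

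Wdr76 was the gene with the widest range, and its J2 precipitate from ADAR1i-124-treated cells was the highest of its 12 libraries. In total RNA it had 539 counts with DMSO, 489 after ADAR1i-124 and 545 after 5-Aza-CdR, or 31.7, 27.8 and 15.8 CPM. In the J2 libraries it had 159 counts with DMSO, 674 after ADAR1i-124, 263 after 5-Aza-CdR and 215 after both drugs, or 13.1, 46.8, 19.8 and 18.3 CPM. The Z22 libraries held 30, 306, 129 and 62 counts in the same order, or 3.44, 20.9, 15.8 and 6.78 CPM. IgG held 443 counts, or 28.9 CPM. Both antibodies thus gave their lowest level with DMSO and their highest with ADAR1i-124, while total RNA was highest with DMSO. From the lowest to the highest library, Wdr76 spanned a factor of 13.6 with library totals. The lowest, at 3.44 CPM, was the Z22 library that stood apart, and the next lowest was Z22 with the combination, at 6.78 CPM. Of 11 pairs of neighbours in the order of its levels, 6 did not differ beyond counting error, among them IgG with total RNA from DMSO-treated cells and IgG with total RNA from ADAR1i-124-treated cells.

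With library totals as the scale, Gnl3l was lower with Z22 from DMSO-treated cells than in any of the other libraries used. With DESeq2 factors its Z22 value for the combination was -0.06 (-0.25 to 0.14) against DMSO, so the 2 were not set apart. Its total RNA held 2835 counts with DMSO, 2671 after ADAR1i-124 and 3828 after 5-Aza-CdR, or 167, 152 and 111 CPM. With J2 it had 1171, 1871, 1238 and 1032 counts in that order of treatments, the combination last, or 96.1, 130, 93.1 and 87.7 CPM. With Z22 the counts were 339, 1435, 654 and 611, or 38.8, 97.9, 80.1 and 66.8 CPM. IgG had 1865 counts, or 122 CPM. As in Wdr76, ADAR1i-124 alone gave the highest level with each antibody, but the factor between the lowest and the highest library was 4.29. This factor is for library totals and rests on the Z22 library from DMSO-treated cells, which stood apart. The next lowest level was 66.8 CPM. Among 11 neighbouring pairs of levels, 4 did not differ beyond counting error.

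With library totals as the scale, Iws1 varied least, by a factor of 1.74 over the 12 libraries, and its order of treatments differed from that of the other genes. With DESeq2 factors its Z22 level with the combination was at a log2 difference of -1.27 from DMSO, wider than this factor. The ranking by range thus holds for library totals. Total RNA held 2300 counts with DMSO, 1726 after ADAR1i-124 and 3803 after 5-Aza-CdR, or 135, 98.0 and 110 CPM. The J2 libraries held 1633, 1622, 1174 and 1129 counts in that order, again with the combination last, or 134, 113, 88.3 and 95.9 CPM. Those with Z22 held 932, 1437, 785 and 724 counts, or 107, 98.0, 96.1 and 79.2 CPM. IgG had 1190 counts, or 77.7 CPM, the lowest of its levels. With both antibodies Iws1 was highest with DMSO, where with library totals Wdr76 was lowest with both and Gnl3l with Z22. For 7 of 11 neighbouring pairs of levels the difference lay within counting error.

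**Figure D2:**
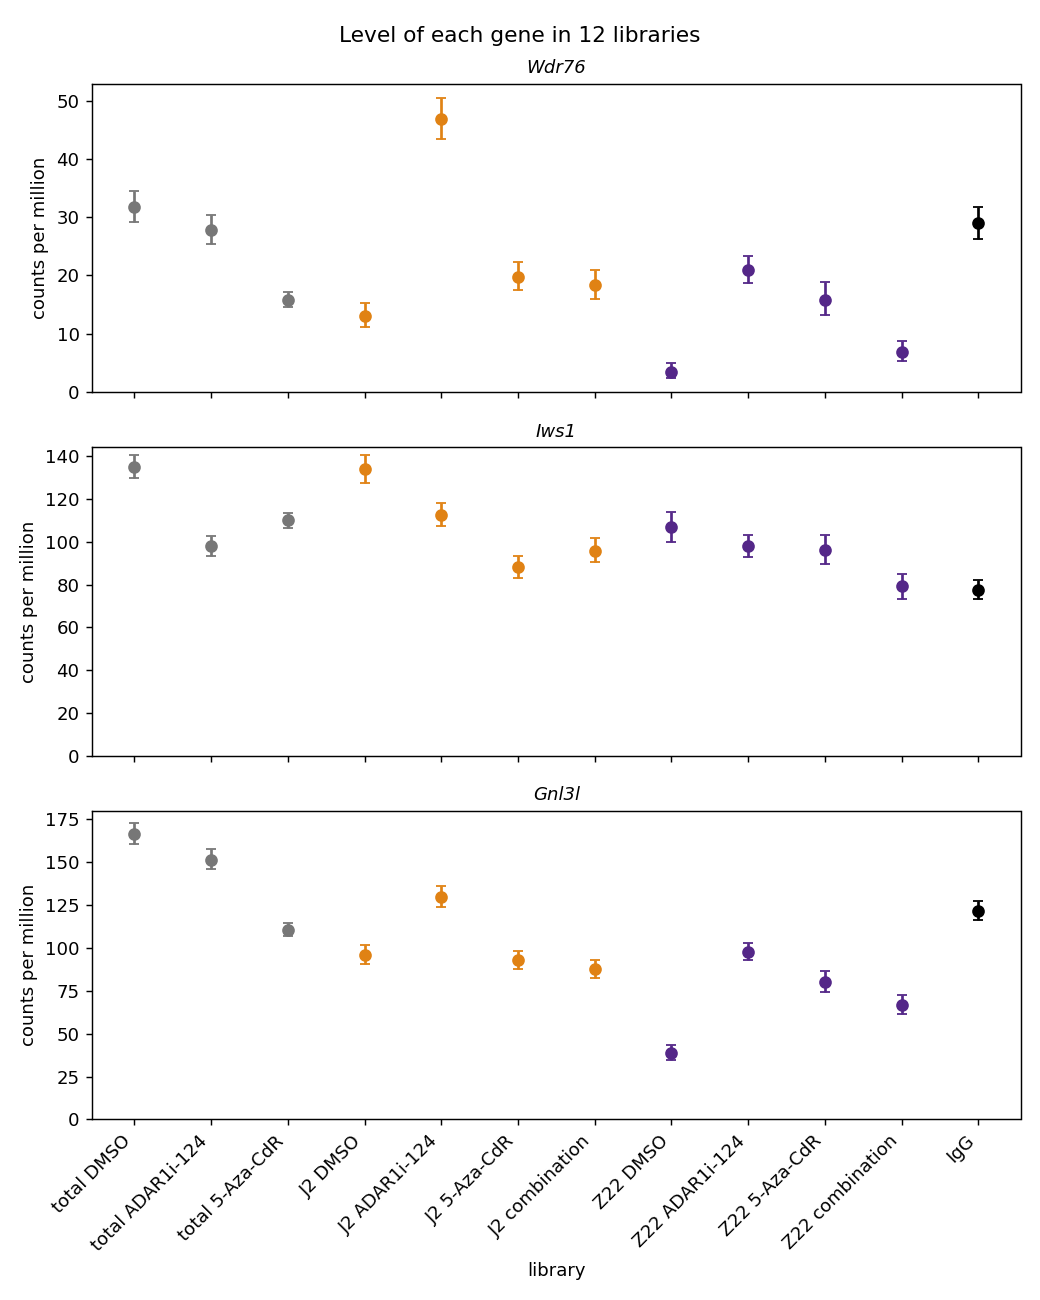
Level of each gene (CPM, axis from 0) in the 12 libraries used, grey for total RNA, orange for J2, purple for Z22 and black for IgG, with 95% Poisson intervals that cover counting error only. Wdr76 and Gnl3l peak with ADAR1i-124 in both sets of precipitates, at 46.8 and 130 CPM with J2, while Iws1 stays between 77.7 and 135 CPM.

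Per length of exon, Gnl3l was the most abundant in total RNA, with 19.9 to 29.9 CPM per kilobase, followed by Iws1 with 8.84 to 12.2 and Wdr76 with 2.50 to 5.02. In the J2 libraries the ranges were 15.7 to 23.3 for Gnl3l, 7.97 to 12.1 for Iws1 and 2.07 to 7.43 CPM per kilobase for Wdr76, so the order of the genes was the same. In the Z22 libraries the ranges of Gnl3l, from 6.97 to 17.6, and of Iws1, from 7.14 to 9.64 CPM per kilobase, overlapped.

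The change with ADAR1i-124 compares each gene's share of a library between treatments, which is not the amount of RNA that an antibody pulled down. All differences below are on the scale of log2(CPM + 0.5), with the exact 95% interval from the counts. In total RNA the members differed from DMSO by less than 2-fold. The log2 difference from DMSO was -0.19 (-0.37 to -0.01) for Wdr76, -0.46 (-0.56 to -0.37) for Iws1 and -0.14 (-0.21 to -0.06) for Gnl3l. The median of 13693 genes was -0.09. Under the other 3 scalings Wdr76 was between -0.12 and -0.15 with intervals that held 0, and Gnl3l was at -0.07 (-0.14 to 0.01) with TMM factors. No member was at least 2-fold higher or lower, beside 7.71% of all genes that were higher and 8.7% that were lower.

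With J2, Wdr76 was 3.49-fold higher with ADAR1i-124 than with DMSO, a log2 difference of 1.80 (1.59 to 2.10), and 98.7% of 13522 genes had a lower value. It was the 1 member of 3 that was at least 2-fold higher, beside 7.37% of all genes. None was at least 2-fold lower, beside 10.8% of all genes. Gnl3l was at 0.43 (0.33 to 0.54) and Iws1 at -0.25 (-0.35 to -0.15), where the median of all genes was 0.00. Set against total RNA of the same treatment, the J2 ratio of Wdr76 went from -1.25 with DMSO to 0.74 with ADAR1i-124. That is a shift of 1.99 ± 0.156 (standard error from the counts), above the shift of 96.9% of 13678 genes. Gnl3l shifted by 0.57 ± 0.0664 and Iws1 by 0.21 ± 0.0683, where the median gene shifted by 0.10.

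With Z22 and library totals as the scale, most genes were higher than in the DMSO library, with a median log2 difference of 0.81. This median was 0.40 without the 20 largest genes in the totals, 0.15 with TMM and 0.06 with DESeq2 factors, and so the shift of all genes depends on the scale. Past the 2-fold line lay 42.9% of 12799 genes on the higher side and 5.13% on the lower side, or 20% and 16.5% with DESeq2 factors. Wdr76 was 5.43-fold higher, at 2.44 (2.06 to 3.19), and Gnl3l 2.50-fold higher, at 1.32 (1.16 to 1.51), so 2 of 3 members were past the 2-fold line and none was 2-fold lower. Iws1 was at -0.12 (-0.24 to 0.00). After subtraction of the median of all genes, Wdr76 was at 1.63, Gnl3l at 0.51 and Iws1 at -0.93. Wdr76 lay above 94.4% of genes, Gnl3l above 68.2% and Iws1 above 19.2%, so Gnl3l was closer to the middle of all genes than its fold shows. Over the 4 scalings tried, Wdr76 ranged from 1.70 to 2.44, Gnl3l from 0.52 to 1.32 and Iws1 from -0.93 to -0.12, with no change of direction, and Gnl3l was past 2-fold only with the library totals.

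With 5-Aza-CdR, all 3 members were lower in total RNA, while Wdr76 was higher in both precipitates. In total RNA the log2 differences from DMSO were -0.98 (-1.18 to -0.83) for Wdr76, -0.30 (-0.37 to -0.22) for Iws1 and -0.59 (-0.66 to -0.52) for Gnl3l, and 9.24% of 14391 genes were lower than Wdr76, which was past 2-fold, at up to -1.09, under 2 of the 4 scalings, as were 10.5% of genes with DESeq2 factors. With J2 Wdr76 was at 0.58 (0.31 to 0.89), Iws1 at -0.60 (-0.71 to -0.49) and Gnl3l at -0.05 (-0.16 to 0.07). With Z22 Wdr76 was at 2.05 (1.62 to 2.82) and Gnl3l at 1.03 (0.85 to 1.24), both at least 2-fold higher, as were 52.1% of 13716 genes. Iws1 was at -0.15 (-0.29 to -0.01) with Z22. The median of all genes there was 1.06 (0.11 with DESeq2 factors), which puts Gnl3l at -0.03 and Wdr76 at 0.99 relative to it. Over the 4 scalings, Wdr76 ranged from 1.10 to 2.05, Gnl3l from 0.01 to 1.03 and Iws1 from -1.18 to -0.15 with Z22, so Gnl3l lost its 2-fold difference, and Iws1 was 2-fold lower with TMM and DESeq2 factors, as were 17.3% of all genes with the latter. Both of these comparisons share the DMSO library with those of ADAR1i-124.

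Wdr76 was lower in both precipitates with the combination than with ADAR1i-124 alone. It was 2.52-fold lower with J2, at -1.33 (-1.59 to -1.13), and 2.94-fold lower with Z22, at -1.55 (-2.04 to -1.22). These values lay below all but 2.73% of 13971 genes with J2 and all but 2.77% of 13708 genes with Z22. Wdr76 was the 1 of 3 members that was at least 2-fold lower, beside 5.64% of all genes with J2 and 6.3% with Z22. Gnl3l was at -0.56 with J2 and -0.55 with Z22, and Iws1 at -0.23 and -0.31. Neither of these comparisons uses the Z22 library that stood apart. The combination has no total RNA library in use, so the values could not be set against total RNA. With 5-Aza-CdR alone, total RNA of Wdr76 was at -0.98 against DMSO, and its part in the lower precipitates was not tested.

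Against 5-Aza-CdR alone, the combination gave small differences with J2, at -0.11 (-0.38 to 0.15) for Wdr76, 0.12 (0.00 to 0.24) for Iws1 and -0.09 (-0.21 to 0.03) for Gnl3l. With TMM and DESeq2 factors Gnl3l was at -0.15 (-0.27 to -0.03) and -0.17 (-0.29 to -0.05), both clear of 0. With Z22 Wdr76 was at -1.16 (-1.68 to -0.77), the 1 member at least 2-fold lower, beside 7.11% of all genes, but it was at -0.94 with TMM factors and -0.97 with DESeq2 factors, short of 2-fold. Gnl3l at -0.26 and Iws1 at -0.28 were near the median of all genes, which was -0.18. Against DMSO, the combination gave 0.47 for Wdr76, -0.48 for Iws1 and -0.13 for Gnl3l with J2, and 0.89, -0.43 and 0.77 with Z22, where the median gene was at 0.82. Over the scalings the Z22 value of Gnl3l was between -0.06 and 0.77, so its direction depends on them. That of Wdr76 was between 0.13 and 0.89, and its interval was clear of 0 with library totals alone, so its lowest Z22 level was not set apart from the combination under the other 3 scalings. That of Iws1 was between -1.27 and -0.43, past 2-fold lower with TMM and DESeq2 factors, as were 17% of all genes with the latter.

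**Figure D3:**
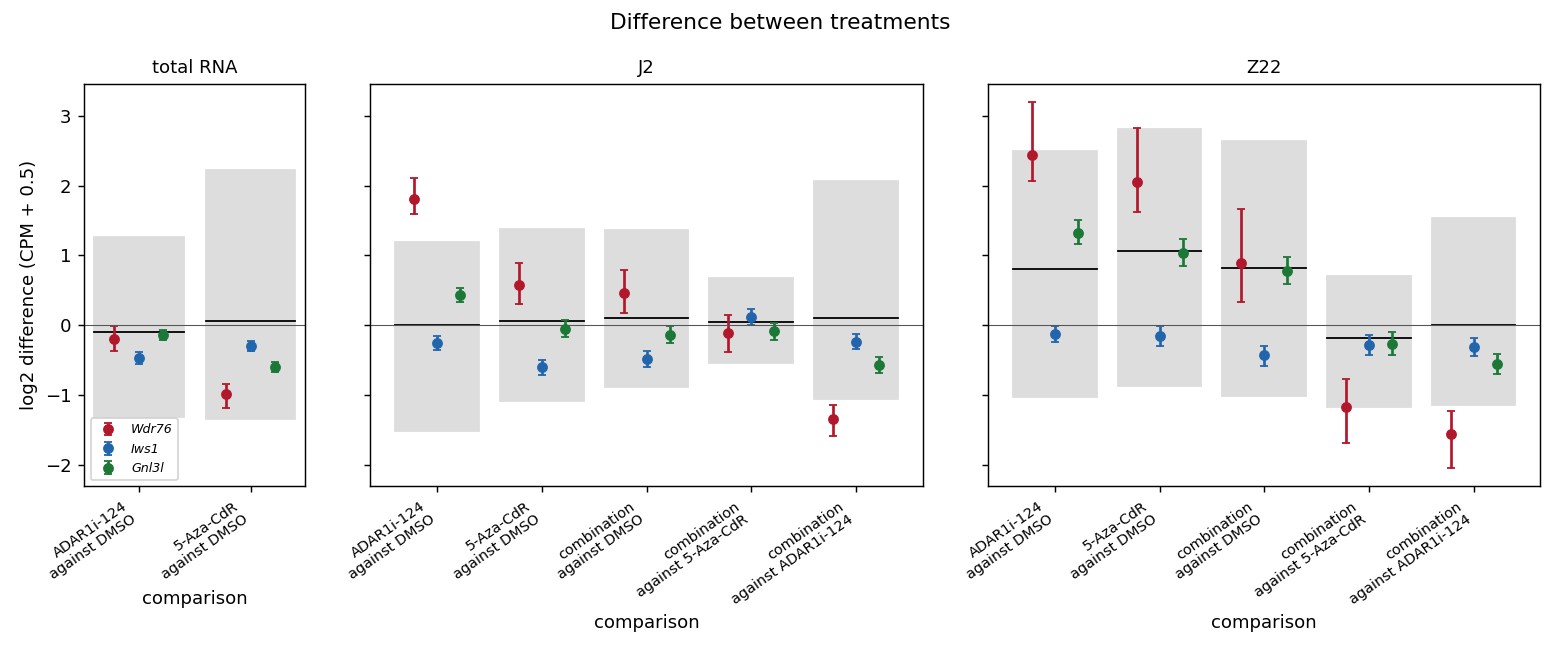
Difference in log2(CPM + 0.5) between treatments in total RNA, J2 and Z22 libraries, with exact 95% intervals from the counts; grey boxes span the 5th to the 95th percentile of all genes and black lines their median. Wdr76 lies above the box with J2 and ADAR1i-124 (1.80) and below it where the combination is set against ADAR1i-124 (-1.33 with J2, -1.55 with Z22) and, just past its edge, against 5-Aza-CdR with Z22 (-1.16), and Iws1 stays inside every box.

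The ratio to IgG compares a gene's share of a precipitate with its share of the control for unspecific binding. Only Iws1 was above IgG with J2 in each of the 4 treatments, at 0.78 with DMSO, 0.53 after ADAR1i-124, 0.18 after 5-Aza-CdR and 0.30 with the combination. The last 2 were near the middle of all genes, of which 58.4% and 58.7% were lower. With TMM factors they were at 0.03 (-0.09 to 0.15) and 0.09 (-0.03 to 0.21), within counting error of IgG. Wdr76 was above IgG with J2 and ADAR1i-124, at 0.69 (0.52 to 0.87), higher than 89.9% of genes, and below it with DMSO at -1.12, 5-Aza-CdR at -0.54 and the combination at -0.65. Gnl3l was at -0.34, 0.09, -0.38 and -0.47 in the same order of treatments. With DMSO Wdr76 was the 1 member at least 2-fold below IgG, beside 8.97% of all genes. No member was 2-fold above IgG with J2, beside 13.5% of all genes with DMSO, 5.63% after ADAR1i-124, 13% after 5-Aza-CdR and 17.9% with the combination.

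With Z22, Wdr76 was below IgG in all 4 treatments, at -2.90 with DMSO, -0.46 after ADAR1i-124, -0.85 after 5-Aza-CdR and -2.01 when the drugs were combined. Gnl3l was below it as well, at -1.64, -0.31, -0.60 and -0.86. Iws1 was at 0.46, 0.33, 0.31 and 0.03, and only the last of these intervals held 0. Under other scalings Iws1 was as high as 1.19 with DMSO, past 2-fold above IgG with TMM and DESeq2 factors (22.5% of all genes with the latter), and as low as -0.02 with 5-Aza-CdR and -0.07 with the combination. With DMSO, Wdr76 and Gnl3l were at least 2-fold below IgG, as were 45.4% of all genes. Gnl3l lost this with TMM (-0.99) and DESeq2 factors (-0.90), with which Wdr76 was past 2-fold after 5-Aza-CdR instead (-1.17 and -1.13), as were 10.7% of genes with DESeq2 factors. With the combination Wdr76 was the 1 such member, beside 10.7% of all genes, and just 2.09% of 13505 genes were lower. Over all genes, 10.1% differed from IgG by at least 2-fold in the J2 and 9.00% in the Z22 precipitate from ADAR1i-124-treated cells, against 22.4% and 56.7% with DMSO. In total RNA the order was the other way, with 26.5% for ADAR1i-124 and 19.7% for DMSO. As the 1 IgG library is the denominator for all 4 treatments, differences between treatments in these ratios rest on the precipitates alone.

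Against total RNA of the same treatment, Wdr76 was depleted with DMSO and not with the drugs in the J2 libraries. Its ratios were -1.25 (-1.54 to -1.02) with DMSO, 0.74 (0.58 to 0.93) after ADAR1i-124 and 0.32 (0.11 to 0.54) after 5-Aza-CdR. With DMSO Wdr76 was the 1 member past 2-fold on the lower side, beside 17.3% of all genes, and it was as high as -0.83 under another scaling. With ADAR1i-124 it reached 1.09 with DESeq2 factors, past 2-fold higher, as were 8.96% of all genes. Iws1 had -0.01, 0.20 and -0.32, and Gnl3l -0.79, -0.22 and -0.25. The median gene was at -0.36 with DMSO, -0.30 after ADAR1i-124 and -0.37 after 5-Aza-CdR, so Gnl3l lay near it with both drugs. Scaling moved Gnl3l up to 0.14 with ADAR1i-124 and 0.18 with 5-Aza-CdR, and Iws1 up to 0.42 with DMSO and 0.11 with 5-Aza-CdR, so these directions depend on it. Wdr76 reached 0.73 with 5-Aza-CdR. With Z22 the ratios of Wdr76 were -3.03, -0.40 and 0.00, those of Iws1 -0.34, 0.00 and -0.19, and those of Gnl3l -2.09, -0.63 and -0.47. Wdr76 and Gnl3l were at least 2-fold lower with DMSO, as were 54.6% of all genes, in the library that stood apart. With DESeq2 factors this share was 28.2%, Wdr76 was at -1.99, and Gnl3l, at -0.97, was short of 2-fold. With DMSO Iws1 ranged from -0.34 to 0.78 over the scalings, and with 5-Aza-CdR from -0.19 to 0.03.

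**Figure D4:**
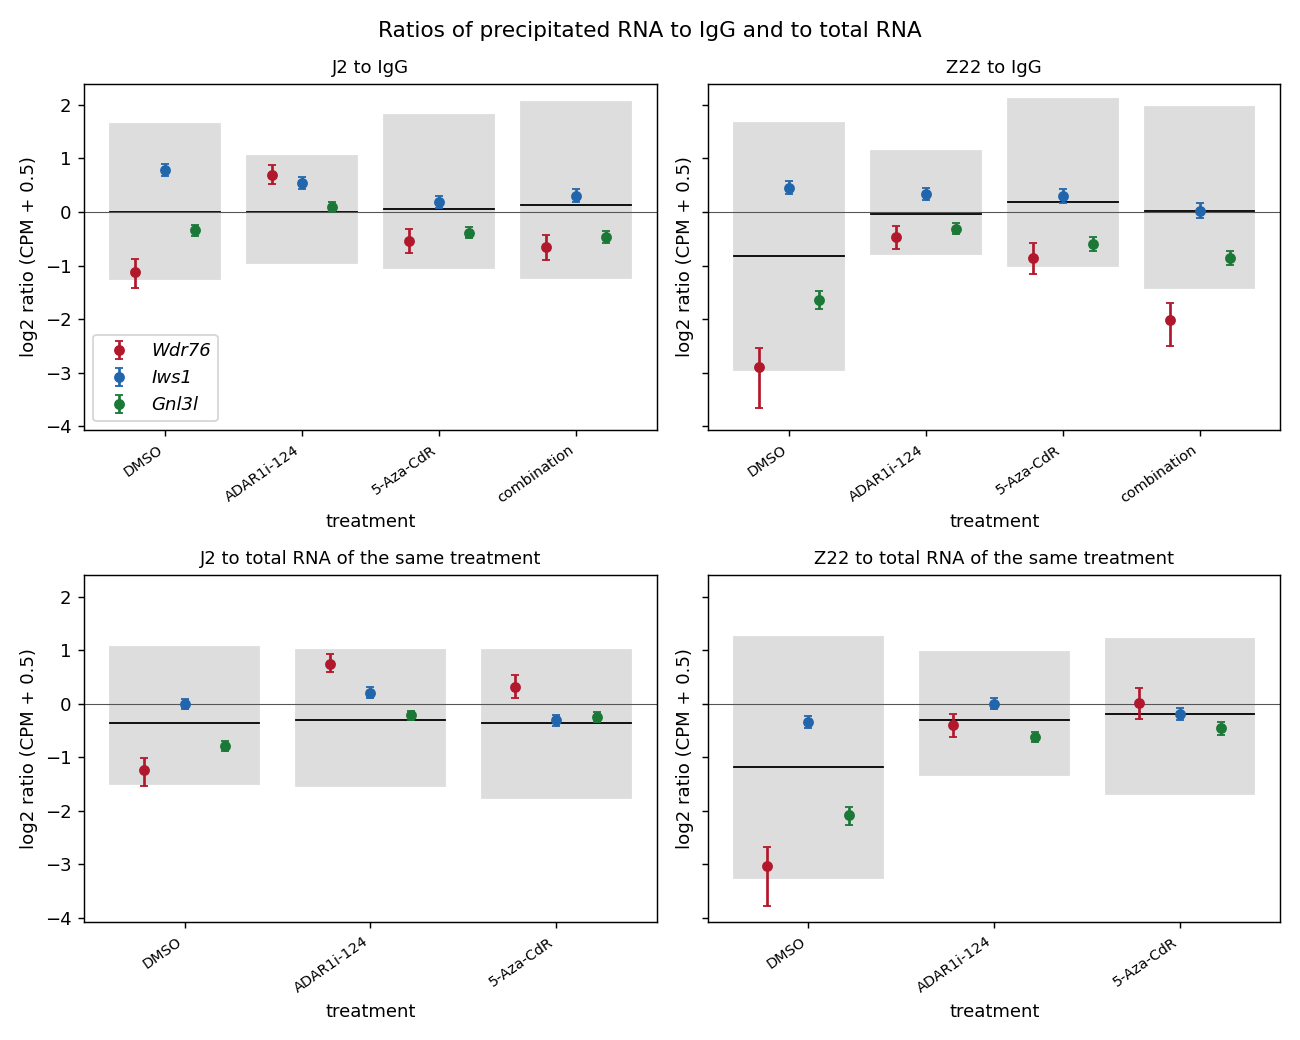
Log2 ratio of J2 and Z22 precipitates to IgG (top) and to total RNA of the same treatment (bottom), with exact 95% intervals; grey boxes span the 5th to the 95th percentile of all genes and black lines their median. Wdr76 goes from -1.12 to 0.69 against IgG with J2 between DMSO and ADAR1i-124, and Iws1 is above IgG in each J2 treatment when library totals set the scale.

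The ratio of Z22 to J2 compares the antibodies within a treatment. Wdr76 was lower with Z22 than with J2, at -1.78 with DMSO, -1.15 (-1.37 to -0.97) after ADAR1i-124, -0.32 after 5-Aza-CdR and -1.37 with the combination. With ADAR1i-124 just 0.994% of 13173 genes had a lower ratio, and with the combination 1.72% of 14211 genes. Wdr76 was then the 1 member at least 2-fold lower, beside 1.65% of all genes with ADAR1i-124 and 4.71% with the combination. With DMSO both Wdr76 and Gnl3l, at -1.30, were at least 2-fold lower, as were 43.5% of all genes. Gnl3l was otherwise at -0.41, -0.22 and -0.39, and Iws1 lay between -0.33 and 0.12 over the 4 treatments, with a direction that depended on the scaling for DMSO and 5-Aza-CdR. Gnl3l was short of 2-fold with DMSO under the other scalings, at -0.54 to -0.97. With the treatment as a block and TMM factors, edgeR's quasi-likelihood test over the 8 libraries gave Z22 minus J2 as -1.01 for Wdr76 (adjusted p = 0.0938), -0.38 for Gnl3l (adjusted p = 0.225) and 0.03 for Iws1 (adjusted p = 0.946). This fit, added after seeing the data, takes the difference between the antibodies as common to all treatments. No gene of 13898 (0%) passed an adjusted p of 0.05, and 3062 had an unadjusted p under it. Without the DMSO pair, Wdr76 was at -0.99 with an adjusted p of 0.0333 by the same edgeR test, the 1 member that passed, beside 6.04% of 14059 genes. The 4 ratios of Wdr76 above were all below 0, but they come from the libraries of these fits and add no separate support. With DMSO the median gene was at -0.80 as well.

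Other genes with strong inverted repeats did not share the J2 value of Wdr76 as a group. This set, chosen after the members' scores were seen, holds 67 other expressed genes with a score of at least 81. With J2 their median log2 difference between ADAR1i-124 and DMSO was -0.06, with quartiles of -0.42 and 0.46, against 0.00 for all genes. Of the 65 that passed the filter, 7 were past 2-fold on the higher side and 5 on the lower side, beside 7.37% and 10.8% of all genes, and 3 lay above Wdr76. With Z22 their median was 1.23 against 0.81 for all genes, 41 of 64 were at least 2-fold higher, beside 42.9% of all genes, and 4 lay above Wdr76. These values are for library totals. With DESeq2 factors the median of all genes was 0.06 and 20% were 2-fold higher, so the Z22 count depends on the scale.

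Partners of each protein were read in the same comparison of ADAR1i-124 with DMSO, and all of the listed genes passed the filter. Beside them, 7.71% of all genes were 2-fold higher and 8.7% lower in total RNA, 7.37% and 10.8% with J2, and 42.9% and 5.13% with Z22, with medians of -0.09, 0.00 and 0.81. These shares and the list counts below are for library totals. With DESeq2 factors the Z22 shares were 20% and 16.5% and the median 0.06, so the Z22 counts depend on the scale. Of 9 genes for the ligase and chromatin proteins linked to Wdr76, none passed 2-fold in total RNA, 2 were higher with J2 and 5 with Z22, with medians of -0.17, 0.43 and 1.40. Hells, a chromatin remodeler, had a log2 difference of 2.19 with J2 (500 and 2718 counts), Cbx3, a heterochromatin protein, had 1.20, and Hells had 2.77 with Z22. Of 13 elongation genes linked to Iws1, 1 was lower in total RNA, 1 was higher with J2, and 2 were higher and 1 lower with Z22, with medians of -0.25, 0.28 and 0.04. Alyref, an mRNA export adaptor, accounted for the first 2 of these with -1.03 in total RNA and 1.18 with J2. Of 7 relatives and partners of Gnl3l, 1 was higher in each kind of library, with medians of 0.11, 0.05 and 0.27: Esrra in total RNA at 1.29, Terf1 with J2 at 1.17 and Mdm2 with Z22 at 1.20.

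Of the overlapping and nearest counted genes, Mfap1a and Fgd1 alone had over 100 counts in a library. Mfap1a, which starts 58 bases before Wdr76 and runs the other way on the opposite strand, had 280 counts with DMSO and 297 with ADAR1i-124 in the J2 libraries, a log2 difference of -0.15. Fgd1, which starts 28828 bases beyond Gnl3l, had 109 and 207 counts there. The pseudogene Gm15152, which overlaps Gnl3l on the other strand, was at 0 in all 12 libraries, and Frmd5, 669 bases beyond Wdr76 on the opposite strand, had at most 35 counts.

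Across the 12 libraries, which come from 1 cell line and differ in depth, the level of Wdr76 followed that of Gnl3l with a Pearson correlation of 0.91, and that of Iws1 with 0.12, while Gnl3l and Iws1 had 0.25. Among 8889 genes that average 10 CPM or more, the levels most like Wdr76 were those of Esco2 (0.97), Atpaf2 (0.97) and Rfc3 (0.97). Those most like Gnl3l were Lnpk, Kdelc2 and Spcs3 (each 0.99), and those most like Iws1 were Ift57 (0.93), Nol4 (0.87) and Brd8 (0.82). Wdr76 and Gnl3l were both lowest in the Z22 library from DMSO-treated cells, where the share of Gm42418 lowers the CPM of every other gene. Its part in their correlation was not tested. These correlations describe the 12 libraries and carry no test.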

How the data were processed

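The authors sequenced ribosomal-RNA-depleted libraries of total and precipitated RNA, mapped the reads with STAR in snakePipes to mm10 (GRCm38), and deposited raw counts per gene. The counting tool and its strand setting are not given in the sources used here. Counts were divided by each library's total over the table and 0.5 CPM was added before log2 (Python 3.11.15, numpy 2.4.6, scipy 1.17.1). Genes averaging 1 CPM or more in a compared pair entered counts, medians and percentiles, and 2-fold was the line for calling a gene higher or lower. Intervals (95%) are exact binomial for ratios and exact Poisson for levels, and cover counting error only. Identifiers were matched to GENCODE M21, which named 54409 of 54532 genes. Inverted repeats were searched in last-exon 3′ UTRs (numba 0.67.0). The calculations were tested on simulated data. The 3 genes and the gene lists were chosen with earlier results of these data known. Genes were named as the members, up to 3 partners of a list, overlapping and nearest counted genes, and the 3 most alike in level. The partners were named from those past 2-fold, not in every case those with the largest change. Alternatives were factors of edgeR 4.0.16 (TMM) and DESeq2 1.42.0, used for scaling and, edgeR alone, for a test of Z22 against J2 with the treatment as a block, totals without the 20 largest genes, pseudocounts of 0.1 and 2 CPM, a 4-fold line and other filters.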

Additional observations from a re-analysis of the deposited data

Results flagged for a closer look

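In each pair below, 1 treatment gave a lower level of a gene in one kind of library and a higher level in another, with both counting intervals clear of 0 when the library totals set the scale. None of these differences was tested, since each condition had 1 library. With ADAR1i-124 against DMSO, Wdr76 was at -0.19 in total RNA. That was 1.99 below its J2 value and 2.63 below its Z22 value, against 0.10 and 0.93 for the median gene. Over the 4 scalings these gaps were 1.88 to 1.99 and 1.85 to 2.63, but the total RNA interval held 0 under each scaling other than the library totals, so there the value in total RNA was not below DMSO beyond counting error. Gnl3l was at -0.14 in total RNA, 0.57 below J2 and 1.46 below Z22, where the median gene differed by 0.93 and 65.5% of genes by less. Its gaps were 0.45 to 0.57 and 0.62 to 1.46 over the scalings, and with TMM factors its total RNA interval held 0. With 5-Aza-CdR against DMSO, Wdr76 was at -0.98 in total RNA, 1.57 below J2 and 3.03 below Z22 (0.95 for the median gene with Z22). Both intervals were clear of 0 under all 4 scalings, with gaps of 1.51 to 1.63 and 2.19 to 3.03. Gnl3l was at -0.59, 1.62 below Z22, where the median gene differed by 0.95 and the Z22 value of Gnl3l was 0.06 with TMM and 0.01 with DESeq2 factors. With the combination against DMSO, the median gene was at 0.11 with J2 and 0.82 with Z22. Gnl3l was at -0.13 and 0.77, 0.91 apart. This gap was 0.29 with TMM and 0.19 with DESeq2 factors, and with the latter both values were below 0. With the combination against 5-Aza-CdR, Iws1 was at -0.28 with Z22 and 0.12 with J2, 0.40 apart. The gap was 0.10 with TMM and 0.13 with DESeq2 factors, and under each scaling other than the library totals both values lay within counting error of 0. Every Z22 value against DMSO rests on the 1 library in which Gm42418 took 34.9% of the counts.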

How the results depend on the processing

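Each count below is of member values at least 2-fold higher or lower, and with 1 library per condition no replicate could be left out. A test of Z22 against J2 with the treatment as a block called 0 members over 4 treatments and 1 without the DMSO pair. Of 15 Z22 changes, 4 were higher, and 2 with TMM, DESeq2 factors, totals without the 20 largest genes or a 4-fold line. The share of all genes fell as well. With DESeq2 factors it went from 42.9% to 20% for ADAR1i-124 and from 52.1% to 22.5% for 5-Aza-CdR. The 2 Z22 changes that were lower became 3 with TMM and DESeq2 factors: Wdr76 with the combination against 5-Aza-CdR dropped out, and Iws1 with 5-Aza-CdR and with the combination against DMSO came in. Beside these values of Iws1, the share of all genes went from 4.1% to 17.3% and from 5.03% to 17% with DESeq2 factors. Without the Z22 DMSO library, chosen after seeing the data, 0 of 6 Z22 changes were higher, and the values lower than IgG, total RNA and J2 went from 3 to 1, 2 to 0 and 4 to 2. In the DMSO comparisons so dropped, 45.4%, 54.6% and 43.5% of all genes were 2-fold lower. Total RNA changes 2-fold lower went from 0 to 1 with TMM, DESeq2 factors and a pseudocount of 0.1 CPM, which is Wdr76 with 5-Aza-CdR. The share of all genes there was 8.96% with library totals and 10.5% with DESeq2 factors. For J2 against total RNA, 1 lower became 0 with TMM, DESeq2 factors and the reduced totals, and 0 higher became 1 with the last pair. With DESeq2 factors the shares of all genes went from 17.3% to 7.54% lower with DMSO and from 5.04% to 8.96% higher with ADAR1i-124. For Z22, 0 higher than IgG became 1 with TMM and DESeq2 factors, and 2 lower than total RNA became 1 with DESeq2 factors, as Gnl3l with DMSO dropped out. The shares of all genes with DMSO went from 11.3% to 22.5% and from 54.6% to 28.2% with DESeq2 factors. The 4-fold line left 0 J2 changes in either direction, 0 Z22 changes lower, and 0 values lower for J2 to IgG, J2 to total RNA and Z22 to J2. The cause of these shifts was not tested beyond the construction of each setting. No member value past 2-fold changed sign, while 11 of 90 values in all turned direction over the 4 scalings, none of them of Wdr76. Of the 90 intervals, 18 clear of 0 with library totals held 0 under another scaling, and 3 the reverse. Of 90 values, 49 moved beyond their counting interval with TMM, 46 with DESeq2 factors, 31 with the reduced totals and 0 with either pseudocount. The median of all genes moved by at most 0.75 without the filter and 0.14 at 10 CPM.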
